A study of Rattus norvegicus with 6 samples.

Results

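The livers of the 3 rats given only corn oil, the vehicle of the study, are described here across genes. They were chosen by their treatment label and make up 3 of the 6 rat livers of the series, with 1 array for each animal. The animals were male Sprague-Dawley rats of the outbred Crl:CD(SD) stock, bought at 5 weeks of age and kept on a basal diet. The labels give 9 weeks of corn oil in the treatment text and 28 days in the design text, and this difference was not resolved. The other 3 rats received tris(2-chloroethyl) phosphate at 400 mg/kg/day, and their arrays were not analysed here. Total RNA was labelled with Cy3 and read on single-colour Agilent arrays of 61657 non-control probes. With only this group there is no contrast to test, so every value below is a description of 3 animals, and animal and array cannot be told apart.

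Most of the liver's mass is hepatocytes, which make the bulk of the plasma proteins and hold the enzymes for nutrient and drug metabolism. Between the plates of hepatocytes run blood sinusoids lined by endothelial cells, with Kupffer cells, the resident macrophages of the liver, inside them. Stellate cells lie beside the sinusoids and cholangiocytes line the bile ducts. Rat liver is also sexually dimorphic: the pulsed growth hormone of males keeps a set of urinary proteins and cytochromes P450 high.

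Signal is given as log2 of the processed spot brightness minus the 75th percentile of its array, so 0 is a bright probe and each step of 1 is a doubling. Each gene was read by its brightest probe, which gave 15278 genes with a RefSeq symbol. Probes differ in how well they bind, so a signal rank orders probes and only loosely orders transcripts. Among 5035 genes with several detected probes, the probes of one gene spanned a median of 2.09 log2 units, and the 90th percentile of that span was 4.91.

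A probe counts as detected where the scanner software set its flag for a signal well above background. This was so on all 3 arrays for 34401 of 61657 probes (55.8%) and for 10499 of 15278 genes (68.7%), while 3559 genes (23.3%) were not well above background on any array. Replicates 1, 2 and 3 had 61.9%, 57.2% and 63.7% of probes detected. Replicate 2 was the only one of the 3 on its slide, was scanned 23 days after the others, and had the highest level of negative control spots (-6.38 against -7.13 and -7.45). Of 641 genes detected on exactly 2 arrays, 555 missed only replicate 2, and 579 genes were detected on exactly 1 array. Of 308 negative control spots, 2 were called well above background on each array. RNA spikes added in known amounts gave a linear response with R2 of 0.992 to 0.996, and the spikes well above background differed by 0.25 to 0.32 between arrays after scaling, highest on replicate 1 in each case.

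The brightest gene was Obp3, a lipocalin of the alpha-2u-globulin family that male rat liver secretes for excretion in urine, at 10.73, 10.65 and 10.54 on replicates 1, 2 and 3. Of the 12 brightest genes, 6 were urinary proteins by name, at means of 10.11 to 10.64. These were Obp3, Mup4l4, Mup5, Mup4l1, Mup4l3 and Rup2, the last counted by its name and not as one of the alpha-2u-globulin family. A seventh, Mup4, stood at 9.39 ± 0.14 (SD, n = 3) with rank 34. The 3 arrays lay close together for all of them, with SDs of 0.07 to 0.14. Obp3 and the Mup genes follow each other on the chromosome among the genes measured, and their probes may bind each other's transcripts, so their single levels are uncertain. The bases just before their starts are also alike, as the printed sequences of Obp3, Mup4 and Mup5 show. Each is the 100 bases before the RefSeq start in the GRCr8 build, at chr5:79640676-79640775, chr5:79759497-79759596 and chr5:79999696-79999795, all on the minus strand, with the letters TATAAA of a TATA box in capitals.
Obp3: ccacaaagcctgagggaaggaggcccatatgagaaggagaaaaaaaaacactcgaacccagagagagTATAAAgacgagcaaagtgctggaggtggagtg
Mup4: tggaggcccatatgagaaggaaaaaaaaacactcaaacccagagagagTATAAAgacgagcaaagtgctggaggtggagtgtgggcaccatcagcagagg
Mup5: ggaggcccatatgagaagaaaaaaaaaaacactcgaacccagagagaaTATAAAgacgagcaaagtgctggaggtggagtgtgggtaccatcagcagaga

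Laid on each other without gaps, at the best shift, the 250 bases before the start were 61.5% to 83.7% identical in the 15 pairs among Obp3 and the 5 Mup genes. Rup2, a urinary protein not beside them on the chromosome, was 30.2% to 33.2% identical to these in its 6 pairs. That is close to the 30.3% to 36.0% of 24 pairs that set them, or each other, against 3 unrelated liver genes (Cyp2c11, Tf and Alb).

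**Figure D1:**
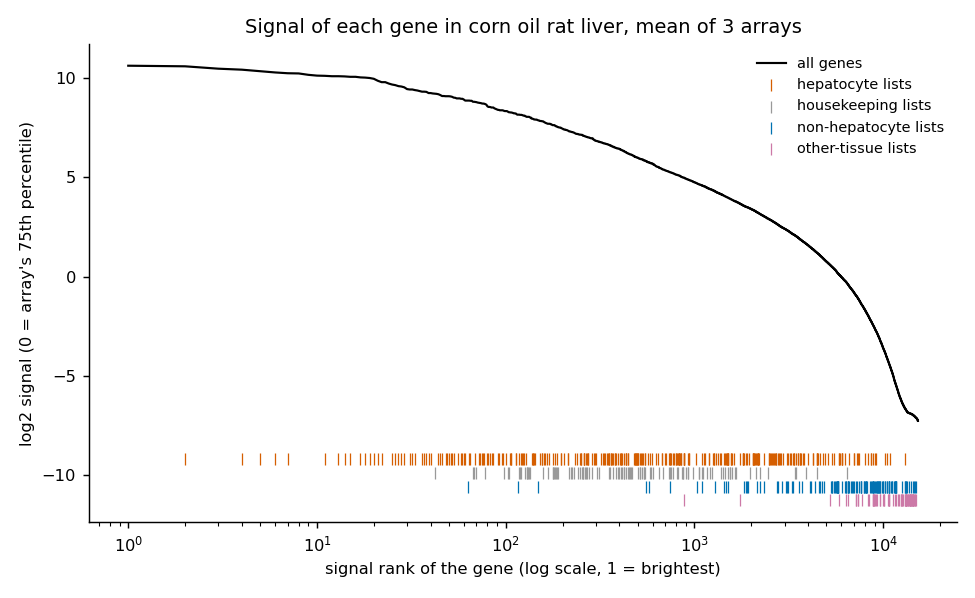
Mean signal of each of 15278 genes (log2, 0 at the 75th percentile of the array, y axis) against its signal rank (x axis, log scale), with the ranks of list members as ticks underneath. Hepatocyte list members (orange) fill the brightest ranks, and markers of other tissues (pink) lie mostly at the dim end.

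Plasma proteins filled most of the remaining top ranks. Haptoglobin (Hp), which binds free haemoglobin, read 10.48, 10.75 and 10.59. The iron carrier transferrin (Tf) read 10.45, 10.40 and 10.47, and transthyretin (Ttr), which carries thyroid hormone, read 10.35, 10.31 and 10.22. Albumin (Alb), the main protein of plasma, had rank 19 at 10.08, 10.04 and 9.95. Its distance below Obp3 is smaller than the usual span between probes of one gene, so no order of transcripts is read from it. The brightest 30 genes also held the fatty acid carrier Fabp1 (10.36 ± 0.17), the lipoprotein components Apoe, Apoc1 and Apoc3 (10.26, 10.08 and 9.98), and the vitamin A carrier Rbp4 (10.04 ± 0.05). Ambp, a plasma protein precursor, was almost the same on all arrays (10.05 ± 0.01).

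Inhibitors of proteases in this set were Mug1 (10.11), its neighbour Mug1l1 (9.81), Itih4 (10.10), Serpina3n (9.88), antithrombin Serpinc1 (9.66) and antitrypsin Serpina1 (9.61). Clotting and complement were represented by the fibrinogen chain Fgb (10.13), prothrombin F2 (9.55) and the central complement factor C3 (9.81). Others of the 30 were the iron store Ftl1 (10.08), the metal binder Mt1 (9.74), the fetuin Ahsg (9.59) and the amyloid protein Saa4 (9.46). Serpina3n had the widest spread among the 30, from 9.50 on replicate 1 to 10.23 on replicate 2. The 5 plasma protein lists (carriers, apolipoproteins, protease inhibitors, coagulation, complement) were detected on all arrays in every one of their measured members, 17, 11, 19, 14 and 17 genes.

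The brightest 10 genes held 7.53% ± 0.177 of the summed signal (SD, n = 3), the brightest 100 held 37.3% ± 0.962 and the brightest 1000 held 80.8% ± 0.327. Each array has its own brightest 100, and 84 genes were in all 3. Of the brightest 100 by mean signal, 60 were members of the hepatocyte lists and 1, the haemoglobin chain Hba-a1, was in a list of other cells. In the same 100, 26 genes had their next measured neighbour on the chromosome in the set too. These were Obp3 with the Mup genes, the fibrinogen genes Fgg, Fga and Fgb, and Apoa1 with Apoc3 and Apoa4. The rest were pairs: Apoc1 with Apoe, Itih4 with Itih3, Mt1 with Mt2A, Mug1 with Mug1l1, Cyp4a2 with Cyp4a3, Cyp2d5 with Cyp2d1, and Serpina3c with Serpina3n. Some of these neighbours are near copies and may bind the same probes.

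The count of CG pairs before the start differed between liver-made and general genes, by description only. RefSeq promoters were found for 12482 of the measured genes. The pair CG occurred a median of 3.0 times in the 250 bases before the start of 58 plasma protein genes. In 28 ribosomal protein genes, which every cell uses, the median was 18, and over all measured genes it was 12.0. A low count was not particular to liver genes, since genes detected on no array also had a median of 3.0. TATAAA, searched on the gene's own strand in the 100 bases before the start, was found in 24 of 85 of the brightest 100 genes (28.2%), in 7 of 58 plasma protein genes (12.1%) and in 4.45% of all measured genes, with 7.12% among genes detected on no array. The letters TTGCNNAA (N is any base), a form of the site bound by C/EBP factors, were searched on both strands of the 250 bases. They were found in 21 of 58 plasma protein genes (36.2%), in 1 of 28 ribosomal protein genes (3.57%) and in 9.17% of all measured genes. These are matches of letters and show no binding, and windows without them say nothing about a factor. Transferrin, albumin and 2 ribosomal genes are printed to show plasma protein genes beside general ones, with any TATAAA in capitals. They are the 100 bases before the start, on the minus strand in each case, at chr8:112695377-112695476, chr14:17906980-17907079, chr12:46718391-46718490 and chr8:71290873-71290972 (GRCr8).
Tf: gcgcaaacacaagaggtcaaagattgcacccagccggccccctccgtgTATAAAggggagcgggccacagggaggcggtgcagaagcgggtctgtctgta
Alb: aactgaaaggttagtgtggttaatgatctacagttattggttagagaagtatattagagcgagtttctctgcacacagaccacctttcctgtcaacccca
Rplp0: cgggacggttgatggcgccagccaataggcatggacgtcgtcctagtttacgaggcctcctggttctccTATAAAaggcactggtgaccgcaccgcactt
Rplp1: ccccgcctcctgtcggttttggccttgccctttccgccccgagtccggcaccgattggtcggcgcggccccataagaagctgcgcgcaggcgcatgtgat

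In their full 250 bases, Alb had 2 CG pairs and Tf had 8, against 18 for Rplp0 and 18 for Rplp1. Tf lay above the median of its group, and its share of G and C (58.4%) was that of Rplp0 (58.4%) and above that of Rplp1 (55.6%), with 38.8% for Alb. Rplp0 is 1 of only 2 ribosomal genes with TATAAA in this window, so the printed pair shows one gene with and one without it. The levels of Rplp1 (8.84, 8.78 and 8.85) and Rplp0 (8.83, 8.77 and 8.79) differed by at most 0.07 between arrays.

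Among the drug- and lipid-metabolising enzymes, 41 of 42 cytochromes P450 were detected on all arrays, with a median of 5.73 (over all measured genes the median was -1.38). The brightest were Cyp4a2 (9.33 ± 0.54), a fatty acid hydroxylase, followed by Cyp3a2 (9.16 ± 0.14), Cyp2c13 (9.11 ± 0.22) and Cyp2d5 (9.10 ± 0.07). Cyp2c, Cyp2d, Cyp3a and Cyp4a genes have near copies whose transcripts can bind the same probe. The exception was Cyp1a1, which the dioxin receptor induces and whose signal never passed the background flag (-7.03, -6.33 and -6.55). Its relative Cyp1a2 was detected at 5.71 ± 0.09. All 4 measured Cyp4a genes were highest on replicate 2 and lowest on replicate 3, for example Cyp4a2 at 9.46, 9.80 and 8.74. In the whole P450 list 11 of 41 detected genes (26.8%) had a range between arrays over 1 log2 unit, against 8.17% of all detected genes. Without replicate 1, 2 or 3 this was 7, 5 or 4 of 41, against 520, 424 or 365 of all genes.

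Conjugating enzymes were led by Ugt2b15 (8.41 ± 0.46), Gsta5 (8.41 ± 0.12), Gsta1 (8.20 ± 0.21) and Gsta2 (7.92 ± 0.13), with 35 of 36 genes detected. In the urea cycle all 7 genes were detected, from Arg1 (8.08 ± 0.33), which releases urea, through Ass1 (6.65 ± 0.05), Asl (6.49 ± 0.59) and Otc (4.90 ± 0.22) down to Nags at 2.83. Amino acid breakdown had 31 of 31 detected, led by Bhmt (9.33 ± 0.19) and Mat1a (8.28 ± 0.16) of methionine metabolism. Of 17 genes for glucose production and glycogen, the brightest included Fbp1 (9.32 ± 0.14), Khk (7.96 ± 0.17) and Pc (7.95 ± 0.14), and all were detected. Fatty acid and ketone enzymes (22 of 22 detected, median 6.34) were brighter than lipid synthesis genes (24 of 24, median 2.28), where only Hmgcs1 (7.15 ± 0.46) and Dgat2 (6.03 ± 0.71) passed 6. This is a difference between probes of different genes, so its size is not a ratio of transcripts.

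For bile acids, 21 of 22 genes were detected, led by Scp2 (9.44 ± 0.12), the conjugating enzyme Baat (8.17 ± 0.29), Slc27a5 (7.84 ± 0.12) and the uptake carrier Slc10a1 (6.51 ± 0.22). Cyp7a1, which sets the pace of making bile acids from cholesterol, was far dimmer at 0.20, -0.49 and -0.43. Nr0b2, a repressor of that enzyme, read 6.39, 4.02 and 7.13, with its low value on replicate 2. It was among the 4 brightest liver transcription factors, with Creb3l3 (7.71 ± 0.06), Nr1i2 (6.04 ± 0.25) and Cebpb (5.43 ± 0.20). All 19 liver transcription factors were detected, but their median of 1.74 lay below that of every enzyme and plasma protein list, and the hepatocyte regulators Hnf4a (0.06 ± 0.25) and Cebpa (0.07 ± 0.21) lay near 0.

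Markers of sex matched the male label. The Y-linked genes Eif2s3y and Ddx3y were detected on all arrays, at 0.86, 0.88 and 0.76 and at -1.0, -0.97 and -1.24. All 13 genes known to be higher in male liver were detected, with a median of 8.24 and none with a range over 1. Obp3, Mup5, Mup4 and Cyp3a2 led them, and the male-specific Cyp2c11 stood at 8.57, 8.38 and 8.82. The female-predominant list had a median of 3.49, with 10 of 11 detected and A1bg (-6.16) not well above background on the 3 arrays. Its brightest members were Cyp2c7 (8.81 ± 0.20), Sult2a1 (6.51 ± 0.80), Cyp2a1 (4.98 ± 0.32) and Ghr (4.85 ± 0.11). Female-predominant genes were the more uneven: 5 of 10 had a range over 1, against 8.17% of all detected genes. Without replicate 1, 2 or 3 it was 4, 2 or 3 of 10, against 4.95%, 4.04% or 3.48% of all genes. Sult2a6 read 5.52, 3.29 and 4.84. Cyp2c12, typical of female liver, read 4.41, 2.68 and 3.39. Whether its probe also binds the far brighter Cyp2c transcripts of males was not tested.

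Across the lobule, genes known from periportal hepatocytes (16 of 16 detected, median 6.0) and from pericentral hepatocytes (19 of 20, median 3.32) were both present. The brightest periportal genes were Igf1 (9.11 ± 0.38), Arg1, Pck1 (7.09 ± 0.18) and Ass1, followed closely by G6pc1 (6.65 ± 0.26). The brightest pericentral genes were Cyp2e1 (8.53 ± 0.24), Cyp2c6v1 (8.29 ± 0.04), Rgn (5.95 ± 0.25) and Rnase4 (5.82 ± 0.23).

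Of 124 genes marking other cells of the liver and blood, 99 (79.8%) were detected on all arrays, with a median of -0.99. Over all 15278 measured genes 68.7% were detected, with a median of -1.38, so these markers were detected more often than genes in general. In the 14 hepatocyte lists, 289 of 292 (99%) were detected, with a median of 5.88. The hepatocyte median exceeded that of the other cells by 7.18, 6.58 and 7.13 on replicates 1, 2 and 3. The mean difference was 6.96 ± 0.33 log2 units (SD, n = 3). The order was thus the same on all arrays, and the difference was smallest on replicate 2. There the other-cell median was highest (-0.92 against -1.28 on both others) and the hepatocyte median lowest (5.67 against 5.90 and 5.85). These medians include members not detected, and replicate 2 had the highest level of negative control spots, whose part in this was not tested.

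**Figure D2:**
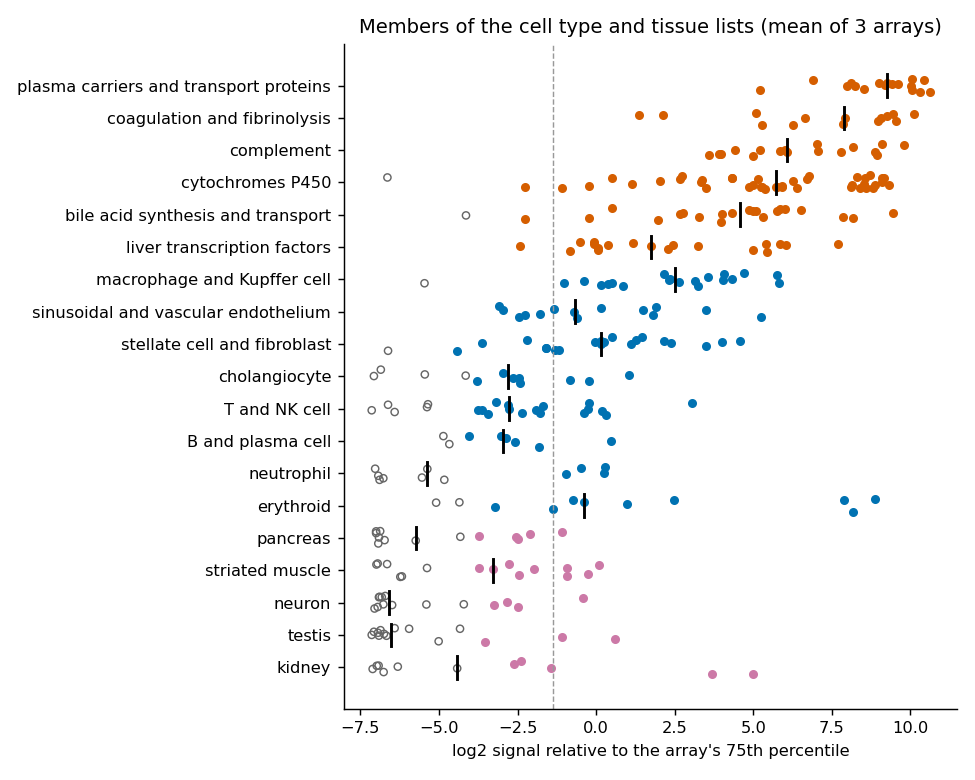
Mean signal over 3 arrays (x axis, log2, 0 at the 75th percentile of the array) of the members of cell type and tissue lists (y axis). Filled points were well above background on all 3 arrays, open points were not, black bars are list medians and the dashed line is the median of all genes (-1.38). Hepatocyte list medians (orange) run from 1.74 to 9.26, while the lists of other liver cells (blue) and other tissues (pink) lie lower in all but the macrophage and Kupffer list (2.50), and single members overlap widely.

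Macrophage and Kupffer cell genes had the highest list median of the other cells, 2.50, with 19 of 20 detected. The Kupffer lectin Clec4f read 5.23, 5.92 and 6.34, the complement component C1qb 4.91, 6.02 and 6.34, and C1qa 3.42, 4.57 and 4.92. Lyz2, a lysozyme of macrophages, read 4.55, 5.04 and 4.51. Endothelium had 14 of 14 detected (median -0.66), led by the VEGF receptor Kdr (5.26 ± 0.13), the Fc receptor Fcgr2b (3.51 ± 0.33), the hyaluronan receptor Lyve1 (1.92 ± 0.41) and Oit3 (1.81 ± 0.17). Stellate and fibroblast genes were detected in 20 of 21 cases, led by Ecm1 (4.58 ± 0.06), the collagens Col3a1 (3.99 ± 0.04) and Col1a2 (3.50 ± 0.12) and Reln (2.37 ± 0.04). Acta2, which rises when stellate cells are activated, stood at -1.61 ± 0.12. In bulk tissue fewer cells of a type and less RNA per cell cannot be told apart.

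Cholangiocyte genes were dim, with 8 of 12 detected and Anxa4 (1.06 ± 0.08) and Epcam (-0.24 ± 0.20) ahead of the duct keratin Krt19 (-2.43 ± 0.11). T and NK cell genes were detected in 16 of 21 cases, with the chemokine Ccl5 (3.04 ± 0.22) well ahead of Gzma (0.33 ± 0.14), Klrk1 (0.18 ± 0.07) and Cd3d (-0.24 ± 0.07). B and plasma cell genes were detected in 6 of 8 cases, among them Pax5 (0.48 ± 0.10), Cd22 (-1.81 ± 0.63) and Cd38 (-2.88 ± 0.45). Neutrophil genes had the lowest share among liver and blood cells, 4 of 11, these being S100a9, Np4, S100a8 and Camp. Haemoglobin, the oxygen carrier of red cells, was the bright exception: Hba-a1 read 9.04, 9.12 and 8.47, Hbb 8.38, 8.36 and 7.77, and Hbb-b1 8.14, 8.07 and 7.44. Replicate 3 was the lowest for each chain, and the other pair of arrays lay close together.

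Genes best known from other tissues were detected less often. Of 67 genes of pancreas, striated muscle, neuron, testis or kidney, 26 (38.8%) were detected on all arrays, against 68.7% of all genes, and 34 on none. Most were dim, such as pancreatic Ctrb1 (-1.07 ± 0.25), Ins1 (-2.11 ± 0.31) and Prss2 (-2.50 ± 0.23), muscle Tnnt1 (0.09 ± 0.35), Ckm (-0.26 ± 0.13), Mb (-0.93 ± 0.18) and Tnni2 (-0.94 ± 0.36), or testicular Odf2 (0.59 ± 0.27), Prm2 (-1.09 ± 0.29) and Prm1 (-3.54 ± 0.14). Neuronal Mapt (-0.41 ± 0.46), Grin1 (-2.47 ± 0.25), Tubb3 (-2.85 ± 0.41) and Nrgn (-3.25 ± 0.15) were the only 4 of 14 detected. Of 6 fat cell genes, which count among the 124 of other cells above, Cfd (3.48 ± 0.45) and Cidec (2.63 ± 0.12) were detected beside Retn (-4.43 ± 0.42), while adiponectin, Adipoq, did not pass the background flag on an array.

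Among kidney genes the water channel Aqp2 was bright, at 3.67, 3.72 and 3.64. The second detected probe of Aqp2 was more than 6 log2 units dimmer, at -3.13, -3.11 and -2.81. The bright value thus belongs to a single probe and was not shared by the other probe of the gene. Other kidney genes detected were Slc22a6 (-1.43 ± 0.16) and Slc12a3 (-2.40 ± 0.87), followed by Slc5a2. Olfactory receptors, the largest gene family with 1111 members measured, were detected in 140 cases (12.6%) with a median of -6.68. Taste receptors were detected in 3 of 33 cases and keratins in 17 of 44.

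The 3 arrays were alike. Over 10499 detected genes the median SD between arrays was 0.17 log2 units, from 0.05 at the 10th to 0.48 at the 90th percentile, while gene means differed with an SD of 2.94. Pairs of arrays correlated at 0.9895 (replicates 1 and 2), 0.9877 (1 and 3, on the same slide) and 0.9861 (2 and 3) across genes, which share scale and probes and are not independent. The pair on 1 slide was therefore not the closest. Spread fell with signal: the median SD was 0.36 among genes below -4 and 0.11 to 0.13 among genes above 2. A range over 1, which is more than 2-fold between the highest and lowest animal, was found in 858 genes (8.17%), and over 2, more than 4-fold, in 134 (1.28%). The array that stood farthest from the other pair was replicate 3 for 346 of the 858 genes (40.3%), replicate 2 for 300 (35%) and replicate 1 for 212 (24.7%). Over all 10499 detected genes the shares were much the same, 40.9%, 31.6% and 27.5%.

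**Figure D3:**
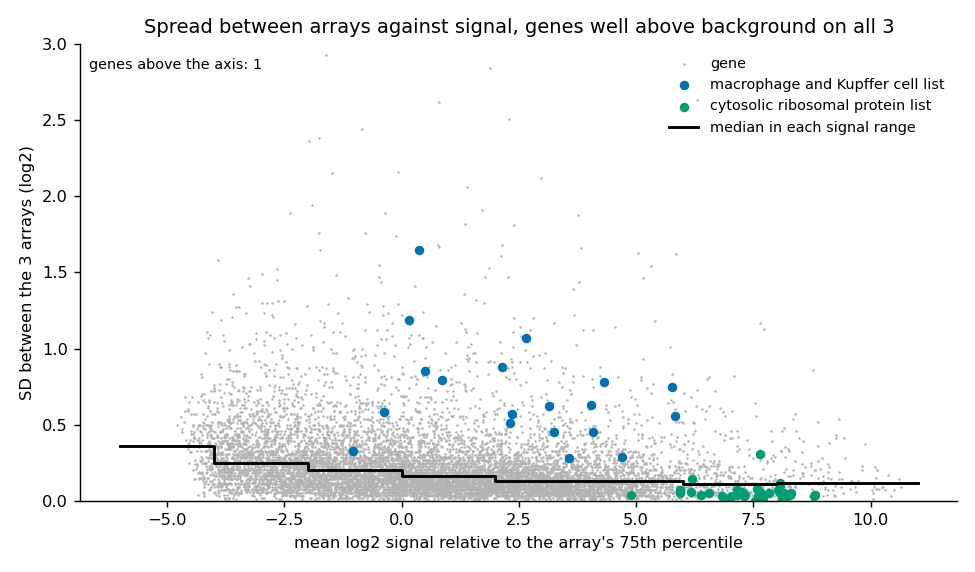
SD between the 3 arrays (y axis, log2 units) against mean signal (x axis, log2, 0 at the 75th percentile of the array) for 10499 detected genes, with the median in each signal range as a black line. Ribosomal protein genes (green) lie mostly under the line with a median SD of 0.04, and most macrophage and Kupffer genes (blue) lie well above it with a median SD of 0.62.

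Genes that every cell needs varied little between arrays. All 108 members of the housekeeping lists were detected and none had a range over 1. The median SD was 0.04 for 36 ribosomal protein genes, 0.06 for 27 proteasome subunits 0.08 for 32 nuclear genes of oxidative phosphorylation and 0.11 for 14 common reference genes, beside 0.10 for the plasma carriers. The brightest ribosomal, proteasome and oxidative phosphorylation genes were Rplp1, Rplp0, Rps2 (8.31 ± 0.05) and Rpl10 (8.29 ± 0.04); Psma4 (6.32 ± 0.04), Psmd1, Psma6 and Psmc5; and Atp5f1a (8.36 ± 0.05), Cox4i1, Ndufb8 and Ndufa6. Of common reference genes, B2m (9.23 ± 0.03) and Ppia (8.70 ± 0.03) varied less than Eef1a1 (8.06 ± 0.08). Actb read 6.29, 5.67 and 5.56, a range of 0.72. Liver plasma proteins could be as steady: the 10 brightest genes with a range under 0.1 were Tf, Ambp, Rbp4, Gc, B2m, Rpl41, Vtn, Spp2, Cyp2d1 and Rplp1. A range under 0.1 was found in 969 genes in all (9.23%).

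The gene that differed most between the 3 animals was Mlc1, a membrane protein best known from astrocytes, at 4.02 on replicate 1 and -3.85 and -3.43 on the others. It has no second detected probe to set beside this. Phgdh, the first enzyme of serine synthesis, read 3.18, 0.77 and 4.98, and its second probe 3.18, 0.72 and 5.01. It was thus highest on replicate 3 and lowest on replicate 2 by either probe. The conjugating enzyme Ugt2b read 3.45, 6.77 and 8.64, and its second probe gave the same order, with a deeper low on replicate 1 (-1.65, 6.65 and 8.67). The liver transcription factor Onecut1 was high only on replicate 2 (1.39, 5.14 and 0.39).

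Others of the 20 widest were highest on replicate 2: the prolactin receptor Prlr (-0.27, 0.38 and -4.99), the leukotriene enzyme Ltc4s (-2.29, 1.98 and -2.21), Socs2, which damps growth hormone signalling (-0.69, 1.67 and -2.07), the chemokine Cxcl1 (-0.65, 2.90 and 1.85) and Tmem30b. Highest on replicate 3 were Gfra1, Hrk, Slc30a2, Prl3d4, Zfp354a, Ephx2 (-0.97, 2.46 and 2.72) and Mmd2, and highest on replicate 1 were Clec2d2l2, Clec2d2l1 and Acsm2. The lectin genes Clec2d2l1 and Clec2d2l2 are near copies with almost the same values, and may be read as a single signal. In all, 10 of the 20 were highest on replicate 3, 6 on replicate 2 and 4 on replicate 1.

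**Figure D4:**
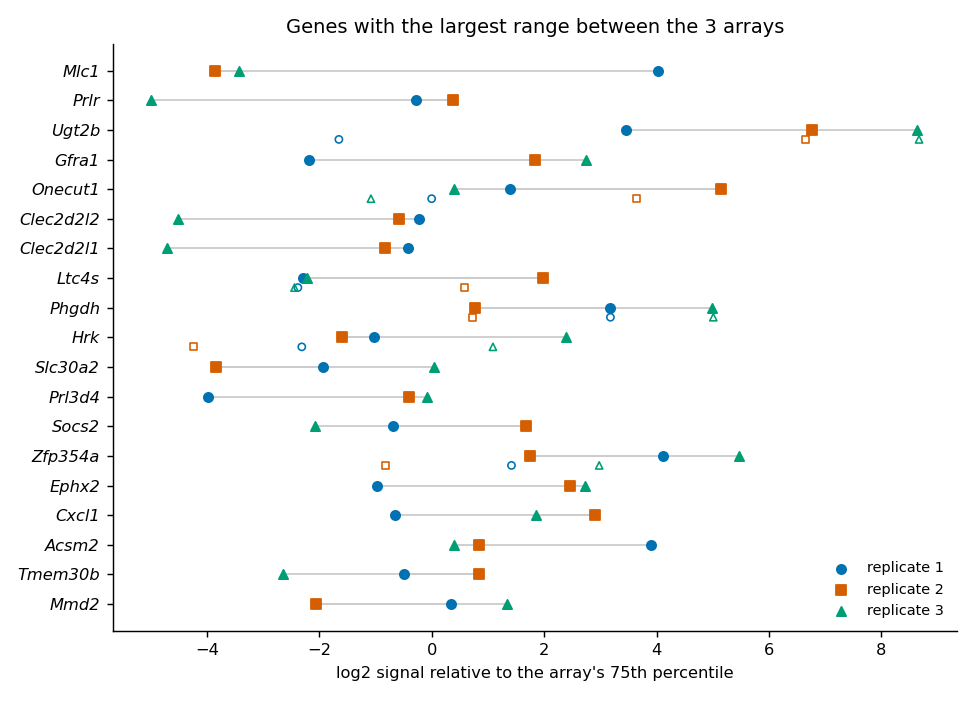
Signal on each array (x axis, log2, 0 at the 75th percentile of the array) of genes from the 20 with the largest range among detected genes (y axis); small open symbols are the second detected probe of the gene, where there is one. The genes shown with a second probe have the same highest array by both probes, and Mlc1 spans the widest range, from -3.85 to 4.02.

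Second probes bear on whether such gaps belong to the gene or to a single spot. Of the 20 genes, 7 had a second detected probe, with the same highest array in 7 and the same order of arrays in 6. Of all genes with a range over 1, 309 had a second detected probe. The highest array was the same for 266 of them (86.1%), against 63.7% of 5031 genes of any range, and deviations from the gene mean correlated at 0.86 between the probes. Both probes are read on the same array from the same RNA, so this speaks to the probe and not to the animal.

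The spread was not shared evenly among the lists. A range over 1 was found in 13 of 19 macrophage and Kupffer genes (68.4%), against 8.17% of all detected genes. Of these 19, 17 were lowest on replicate 1 and 17 highest on replicate 3. The shares over all detected genes were 32.9%, 33.5% and 33.7% for highest on replicates 1, 2 and 3, and 28.4%, 32.3% and 39.2% for lowest. The scavenger receptor Marco read -1.35, 0.53 and 1.93, Cd5l 1.45, 2.99 and 3.50, Vsig4 -1.16, 0.43 and 1.18, and the haemoglobin receptor Cd163 -0.04, 1.17 and 1.45. In these genes, as in Clec4f, C1qa and C1qb, replicate 1 was lowest, replicate 3 highest and replicate 2 between them, which held for 16 of the 19 and for 15.4% of all detected genes. Replicates 2 and 3 were much closer to each other: without replicate 1, 1 of the 19 (5.26%) had a range over 1, against 4.95% of all genes. The cause was not tested. Of the 13 genes with a second detected probe, 12 were lowest on replicate 1 by that probe as well. Endothelial genes had the same low array, 12 of 14 on replicate 1, but by little, with none over a range of 1 and list deviations of -0.18, 0.01 and 0.20. The spikes, which differed by 0.25 to 0.32, were highest on replicate 1, the array on which these cell markers were lowest.

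**Figure D5:**
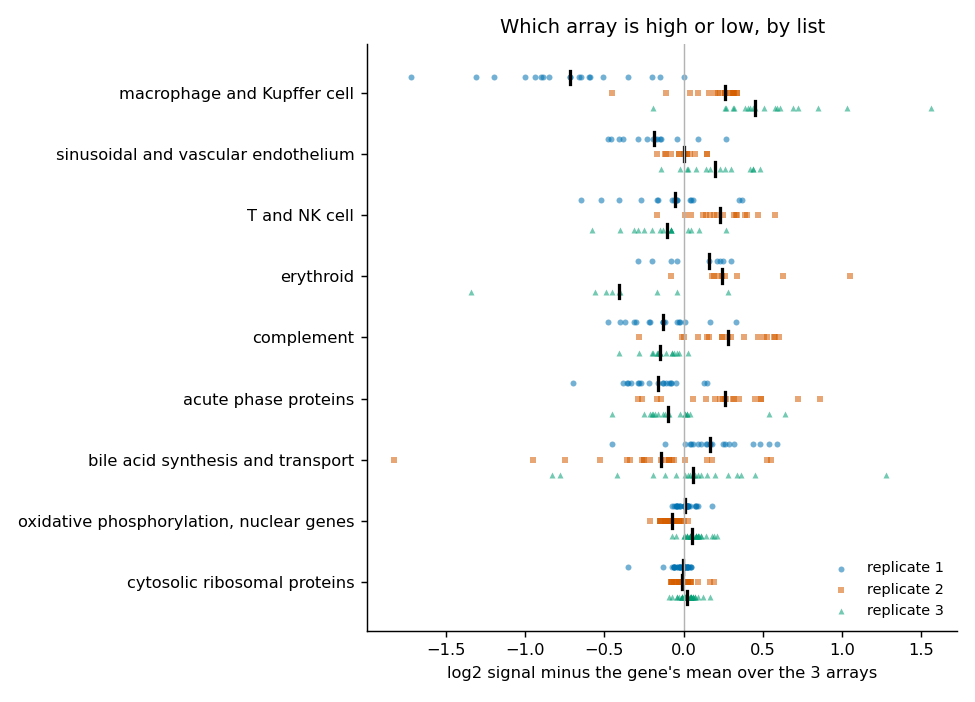
Signal minus the mean of the gene over the 3 arrays (x axis, log2 units) for the detected members of 9 lists (y axis), by replicate, with list medians as black bars. Macrophage and Kupffer genes lie at a median of -0.72 on replicate 1 and 0.45 on replicate 3, complement genes at 0.28 on replicate 2, and ribosomal protein genes near 0 on every array.

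Lymphocytes and red cells followed other orders. T and NK cell genes were highest on replicate 2 in 13 of 16 cases, with a median deviation of 0.23. Many of these genes are dim, and the background level of replicate 2 was the highest of the 3, whose part in this was not tested. Erythroid genes were lowest on replicate 3 in 7 of 9 cases, with a median deviation of -0.41, which Hba-a1, Hbb and Hbb-b1 shared. The chaperone of alpha globin, Ahsp, read -0.09, 0.66 and -1.73. The neutrophil proteins S100a8 (-0.50, 0.98 and -1.95) and S100a9 (0.30, 1.69 and -1.14) were likewise high on replicate 2 and low on replicate 3. Of the other detected neutrophil genes, Np4 (0.11, 0.38 and 0.21) varied little. Camp (-0.43, -0.65 and -1.8) was also lowest on replicate 3 but highest on replicate 1.

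Complement genes were highest on replicate 2 in 14 of 17 cases, with list deviations of -0.13, 0.28 and -0.15. C3 read 9.77, 10.05 and 9.61, Cfb 9.10, 9.24 and 8.94, Cfi 8.80, 9.17 and 8.82, and C4a 8.57, 9.47 and 8.59. The only complement gene with a range over 1 was the dimmer C6, at 3.42, 4.47 and 3.83. Acute phase proteins, which the liver secretes more of in inflammation, were highest on replicate 2 in 15 of 19 cases. All fibrinogen chains were highest there, with Fga at 8.98, 9.75 and 9.05, Fgg at 9.09, 9.89 and 9.34 and Fgb at 10.36 on replicate 2 (mean 10.13 ± 0.20). Lbp, which binds bacterial lipopolysaccharide, read 2.40, 3.96 and 2.94, and Lcn2 read -1.70, -0.71 and -1.88. The kininogens Kng1 (6.98, 9.02 and 7.18) and Kng2 (6.89, 8.98 and 7.01), near copies of each other and members of the protease inhibitor list, were also highest on replicate 2, by about 2 log2 units. The 4 exceptions among the acute phase proteins were Mt1 and Mt2A, lowest on replicate 2, and the iron hormone Hamp (6.54, 6.61 and 7.54) and A2m, a protease inhibitor (2.76, 2.79 and 3.59), highest on replicate 3.

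The apolipoproteins were highest on replicate 1 in 8 of 11 cases, and only Apoa4 (9.41, 7.79 and 9.10) had a range over 1. Replicate 2 was lowest for 16 of 21 bile acid genes and for 28 of 32 nuclear genes of oxidative phosphorylation. The latter shift was small, with list deviations of 0.01, -0.07 and 0.06. Fatty acid and ketone enzymes were lowest on replicate 3 in 15 of 22 cases, among them Fabp1 (10.43, 10.48 and 10.16), Acsl1 (9.11, 8.92 and 8.59), Slc27a2 (8.76, 8.82 and 8.71) and Acaa1a (8.53, 8.38 and 8.14), in the same sense as the Cyp4a genes.

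Genes that move with food intake were among the least even. In this list 10 of 17 had a range over 1 (58.8%), against 8.17% of all detected genes. Without replicate 1, 2 or 3 it was 9, 6 or 3 of 17 (52.9%, 35.3% or 17.6%). The shares of all genes were then 4.95%, 4.04% or 3.48%. Igfbp1, induced when insulin is low, read 3.24, 2.70 and 5.42. The hormone Fgf21 read 0.99, 0.97 and 2.89, and both were highest on replicate 3. The stress-responsive Trib3 (-0.55, 0.10 and 1.25) and Asns (1.02, -0.53 and 1.72), the lipogenic Thrsp (2.29, 1.93 and 3.38) and Trib1 (-1.42, -0.67 and -0.08) were also highest there. Angptl4 (6.45, 6.94 and 5.51) and Pdk4 (-0.93, 0.57 and -0.65) were highest on replicate 2 and Fasn (1.34, 0.43 and 1.47) was lowest there. The glucose genes Pck1 and G6pc1, among the brightest of the list, stayed within a range of 0.46.

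Immediate early genes respond within minutes to stimuli that include handling of tissue. Of 19 detected, 8 had a range over 1 (42.1%), against 8.17% of all detected genes. Without replicate 1, 2 or 3 it was 3, 5 or 6 of 19. The shares of all genes were then 4.95%, 4.04% or 3.48%. The immediate early genes did not move as a block. Fos (-1.60, -4.11 and -3.97), Jun (4.35, 3.31 and 2.61), Dusp1 (0.85, -0.69 and -1.19), Zfp36 (-0.14, -1.29 and -1.38) and Ccn1 (0.86, -0.29 and 0.50) were highest on replicate 1. Egr1 (0.80, -0.77 and 1.26), Atf3 (-1.30, -0.61 and 0.41) and Ccn2 (-1.88, -2.60 and -1.50) were highest on replicate 3. The brightest of the list, Ier2 (4.41 ± 0.09), Jund (4.26 ± 0.37) and Junb (3.80 ± 0.12), varied less.

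Of 13 clock genes 1 had a range over 1, Per2 (-0.37, -1.48 and -0.53), a share near the 8.17% of all detected genes. Their median SD was 0.24. Dbp (2.22 ± 0.10), Bmal1 (2.17 ± 0.18), Tef (1.86 ± 0.08) and Nfil3 (1.46 ± 0.34) were the brightest. Among heat shock genes Hspb1 (1.56, 1.86 and 3.77) and Hspa1a (-0.84, -2.76 and -0.82) passed a range of 1, while Hspa8, Hspe1 (6.96 ± 0.05), Hspa5 and Hsp90aa1 at 6.64 to 7.88 did not. Interferon-stimulated genes had 3 of 19 over a range of 1 (15.8%), against 8.17% of all detected genes. These were Oas1a (2.20, 1.48 and 3.47), Ifi44 (1.29, 1.58 and 2.31) and Gbp2 (0.15, 1.28 and 1.49). The brightest interferon-stimulated genes were Ifi27 (8.34 ± 0.17), Mx2 (6.71 ± 0.14), Stat2 (3.94 ± 0.05) and Psmb8 (2.74 ± 0.42). The second detected probe was far dimmer for Mx2 (-1.85, -1.92 and -1.41) and for Stat2 (-0.81, -0.74 and -0.56). Their bright values thus belong to a single probe each.

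Cell cycle genes were dim, with 19 of 22 detected at a list median of -1.58, led by Ccnd1 (2.74 ± 0.48), Pcna (1.31 ± 0.16), Tk1 (-0.13 ± 0.32) and Mcm4 (-0.19 ± 0.25). They were highest on replicate 2 in 14 of 19 cases, and the part of that array's higher background in this was not tested. The ribonucleotide reductase subunit Rrm2 (-0.75, 0.71 and -1.50), the cyclins Ccna2 (-3.20, -2.0 and -3.12) and Ccnb1 (-4.43, -3.49 and -4.49) and their kinase Cdk1 (-1.35, -0.61 and -1.68) had a range over 1. The second detected probe of Rrm2 was dimmer and nearly flat (-4.32, -3.95 and -4.18).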

How the data were processed

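Per the file headers, the authors scanned single-colour Agilent arrays and made the spot values with Feature Extraction 10.7.1.1, which the submitters' processing notes give as 10.7; the genome build of the array design was not used. The deposited intensity is the processed signal, already background-corrected by that software, and the flags are its own calls. The deposited series table holds a ratio to the 75th percentile of each array: above a processed signal of 100 it followed the scanner values within 0.00038 log2 units, with column medians of 0.101, 0.103 and 0.0961. Its 3 columns of other samples were not used.

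From the intensity, log2 minus the 75th percentile over 61657 non-control probes was computed (Python 3.11.15, pandas 2.3.3, numpy 2.4.6). The 49 spots flagged as outliers were left out, which left 3 of the detected genes without a value on an array, so that counts of the highest or lowest array are over 10496 genes. Probes were named through RefSeq accessions (GRCr8): 27447 matched, and 34210 without a symbol keep the array's name and were not ranked. Each gene is read by its brightest probe. A range is the highest minus the lowest of the 3 arrays. Promoters are the first RefSeq entry of each symbol. With 1 group of 3 arrays, whose number limits the precision, no test was made. SDs are between these 3 samples. Spot noise within an array is known for control spots only.

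The 44 gene lists hold 811 genes, of which 739 were measured. Members, lists and thresholds were chosen with earlier results of these data known. Genes were named by rule: the 30 brightest; the 4 brightest of each list, hepatocyte members not detected on any array, and up to 4 detected members of other-cell lists; the 20 of largest range; the 10 brightest of range under 0.1; and state-list members of range over 1. Every other gene was named after its values were seen, among them Cyp1a2, Cyp2c11, Cyp2c12, Cyp7a1, Hnf4a, Cebpa, Acta2, Adipoq, Actb, Marco, Cd5l, Vsig4, Cd163, Ahsp, Kng1, Kng2, Hamp, Nags, Sult2a6, Slc5a2, Mt2A and A2m. Some genes that the rule names are not reported here. Alternatives are listed in the closing section; limma 3.58.1 in R 4.3.3 made the normexp (offset 50) and quantile values. The steps were checked on simulated data.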

Additional observations from a re-analysis of the deposited data

How the results depend on the processing

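Reported values were recomputed with median centring, the 75th percentile over detected probes, quantile normalization, normexp background correction, the deposited series table, the mean over the probes of a gene, outlier spots kept, the weaker flag for a positive and significant signal, and each replicate left out. The difference between hepatocyte and non-hepatocyte medians kept its sign. The other recomputed values are counts, shares, SDs, ranks and ranges. These cannot be negative, so a reversal of direction could not show in them. Leaving aside left-out replicates, 158 of 165 recomputed values stayed within 1.5 times a count or 1 SD of a value. Part of these could not move, so the count is no measure of robustness. Median centring shifts each array by a constant, which cannot change detection counts, shares of signal or differences of list medians. Another detection flag cannot change signal ranks or shares. With normexp the difference between hepatocyte and non-hepatocyte medians fell to 6.52 and the genes with a range over 1 to 459 (858 as reported). The latter were 1482 with the weaker flag, 3623 when dim probes were kept, and 447 with the replicates of 1 slide only, which is a comparison of 2 arrays. With the mean over probes the brightest 100 held 43.3% of the signal. When every name on the array was ranked, an alternative chosen after seeing the data, 47 of the 100 stayed, because 53 places went to names without a symbol.

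Leaving out 1 replicate gave 10533 to 11055 detected genes, 367 to 540 genes with a range over 1, a median SD of 0.12 to 0.15, 97 to 98 of the brightest 100, 36.9% to 37.8% of the signal in them, 57 to 60 hepatocyte members among them, median differences of 6.86 to 7.15, 289 to 291 hepatocyte and 99 to 102 other members detected. Fewer arrays give a smaller range by construction. Of 550 recomputed ranks and ranges of 50 single genes, 50 moved, 24 of them with a replicate left out and 18 with the mean over probes. Counts of the array order, chosen after seeing the data, stayed within the limit. Genes below about -4 lie near the dimmest detected signals (-5.08, -4.38 and -5.38), so their differences are the least certain. No paired analysis was possible because only 1 group is described.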

Other observations

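Among all 45877 names on the array, 53 of the brightest 100 had no RefSeq symbol here, so the ranks above are over named genes only. Detection of RNA spikes reached lower amounts on replicates 1 and 3 than on replicate 2: the detection limit, as log10 of relative amount, was 0.497, 1.19 and 0.563 on replicates 1, 2 and 3, with a median spot-to-spot CV of 3.56%, 3.79% and 3.00%. The brightest olfactory receptor probes were those of Or4f7c (4.94), Or1f26 (4.57) and Or2ak6 (3.49), chosen after their values were seen. They lie far above the median of their family (-6.68), and Or4f7c had signal rank 895 among all genes.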
